A study of Mus musculus with 36 samples.

Results

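Cell cycle and DNA replication genes were followed in monocytes, fetal macrophages and alveolar macrophages of C57BL/6 mice. The set holds 47 genes chosen by name for a role in replication licensing, the replication fork, G1/S control, mitosis or cell cycle inhibition. Of these, 45 were measured by a probe set annotated with 1 gene, among 19938 such genes in the series, and all 45 passed the filter on dim genes along with 12244 genes in all. Ccnb1, a mitotic cyclin, had no entry in the probe annotation used here, and the probe set of Cdkn1a, a p53-responsive inhibitor, is annotated with 2 genes. The expression of both was not analysed here, while the promoter of Ccnb1 was searched with the others. Cks2 had 3 such probe sets and Pcna and Top2a 2 each, of which the brightest on average was read. Near-identical copies of Cks2 and Pcna can share signal with them.

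The study compared where alveolar macrophages come from, with 36 arrays in 9 groups of 4. The 3 precursor groups were sorted directly: monocytes from bone marrow of adult mice aged 6 to 12 weeks, monocytes from fetal liver at E15.5 (embryonic day), and macrophages from yolk sac at E12.5. Mature alveolar macrophages (AMs), recovered by washing the lungs, came from adults aged 6 to 12 weeks and, as a native control, from wild-type mice at 6 weeks. Each of the 4 cell types (the precursors and the mature AMs) was also given through the nose to newborn Csf2rb-/- mice, and donor cells were sorted from lung washes 6 weeks later. The names BM-derived AMs (from bone marrow), FL-derived (fetal liver), YS-derived (yolk sac) and AM-derived AMs are used for them. Csf2rb encodes the beta chain shared by the receptors for GM-CSF, IL-3 and IL-5, and mice without it have no normal AMs of their own, a setting that all 4 derived groups share and the native control does not. Donor and wild-type cells carried both CD45.1 and CD45.2. The titles call the 4 arrays of a group biological replicates, and the number of animals behind each is not given in the sources used here, so p-values measure the spread between these arrays.

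A dividing cell licenses its replication origins in G1 by loading the MCM helicase with the help of Cdc6 and Cdt1, and the GINS complex later activates it. Cyclins D and E with their kinases release E2F factors, which switch on genes for licensing, nucleotide supply and fork proteins. Genes for mitosis, among them the kinases Aurka and Plk1 and the motor Kif11, are switched on later, through elements known as the CHR and the CCAAT box. Monocytes are mostly short-lived products of dividing progenitors, whereas AMs renew themselves slowly in the lung.

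The promoters of the genes are shown first, with matches to these elements. RefSeq promoters (assembly GRCm38.p6, 250 bases before and 50 after 1 start per gene, 300 bases) were found for 38 of the 47 genes. An E2F site was searched as TTTGGCGC, TTTCCCGC, TTTGCCGC or TTTCGCGC and the CHR as TTTGAA, on both strands. An E2F match lay in 7 of 19 promoters of replication and G1/S genes (36.8%) and in 1 of 17 of mitotic genes (5.9%), against 2.3% of all 27025 promoters. A CHR match lay in 3 of 19 (15.8%) and 11 of 17 (64.7%), against 18.1% of all. The CCAAT box, searched as CCAAT, lay in 12 of 19 (63.2%) and 15 of 17 (88.2%), against 37.9%. A match is a run of letters, not a bound site. Promoters of 2 replication genes with an E2F match and 2 mitotic genes with a CHR match are shown, with the match in capitals, because each pair had the widest range of group means among such genes of its class. They are Mcm5 at chr8:75109259-75109558 on the plus strand, Cdc6 at chr11:98907901-98908200 on the plus strand, Aurka at chr2:172370521-172370820 on the minus strand and Kif11 at chr19:37376132-37376431 on the plus strand. For each gene the first listed start was used. The windows of Cdc6 and Aurka lie wholly inside the annotated gene, downstream of its outermost start, so other starts of these genes were not searched. The capitals in Mcm5 cover 2 overlapping matches. The CHR match in Aurka begins 32 bases after the start used, so a search of only the bases before the start does not find it.
Mcm5: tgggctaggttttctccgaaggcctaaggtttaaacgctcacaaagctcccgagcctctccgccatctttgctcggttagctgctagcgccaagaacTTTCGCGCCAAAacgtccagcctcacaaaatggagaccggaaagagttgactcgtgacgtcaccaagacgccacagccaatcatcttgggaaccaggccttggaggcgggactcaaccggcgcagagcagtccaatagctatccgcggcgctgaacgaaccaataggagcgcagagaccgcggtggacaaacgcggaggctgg
Cdc6: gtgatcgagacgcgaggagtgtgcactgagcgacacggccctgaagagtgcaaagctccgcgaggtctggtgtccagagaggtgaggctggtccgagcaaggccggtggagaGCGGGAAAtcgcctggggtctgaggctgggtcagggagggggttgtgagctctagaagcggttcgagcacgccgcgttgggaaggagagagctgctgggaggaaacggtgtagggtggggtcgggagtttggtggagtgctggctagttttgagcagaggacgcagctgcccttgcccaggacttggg
Aurka: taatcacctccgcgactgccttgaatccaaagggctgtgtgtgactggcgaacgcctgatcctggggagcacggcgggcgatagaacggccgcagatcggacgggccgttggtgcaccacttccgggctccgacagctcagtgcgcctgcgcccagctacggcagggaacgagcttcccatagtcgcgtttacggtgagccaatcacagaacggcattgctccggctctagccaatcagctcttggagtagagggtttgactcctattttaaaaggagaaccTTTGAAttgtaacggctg
Kif11: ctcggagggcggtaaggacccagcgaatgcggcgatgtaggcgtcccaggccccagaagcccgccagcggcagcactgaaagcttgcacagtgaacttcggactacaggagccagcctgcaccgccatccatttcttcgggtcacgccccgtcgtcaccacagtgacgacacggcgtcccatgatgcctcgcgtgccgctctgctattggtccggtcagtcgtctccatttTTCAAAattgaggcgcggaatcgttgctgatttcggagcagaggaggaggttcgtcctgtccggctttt

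All values are deposited log2 values, so a difference of 1 is a doubling, and levels of different genes are not compared. Array medians lay between 4.544 and 4.732 on that scale and each array's mean correlation with its own group was 0.9796 to 0.9894. All 9 AM markers were above the table's median (4.623) in the 6 AM groups. All 5 monocyte markers were above it in both monocyte groups, and all 8 fetal macrophage markers in the yolk sac group. Part of each list also passed elsewhere: 6 AM markers in bone marrow monocytes, and 3 monocyte markers in each AM group. Of the fetal macrophage markers, 3 passed in both monocyte groups and 3 to 5 in AM groups. The summed linear level of AM markers was 4924 to 5286 in bone marrow monocytes and at least 22943 in AMs. Markers of other cells also differed between the precursors. The summed linear level of 9 granulocyte and monocyte progenitor genes was 1157 to 3530 in bone marrow monocytes, 4762 to 9729 in fetal liver monocytes, and 174 to 191 in yolk sac macrophages. For 8 neutrophil genes it was 1356 to 8839, 1942 to 4653, and 105 to 126. Ly6g and Retnlg of the neutrophil genes and Kit of the progenitor genes were below the table's median in every array. Ltf, another neutrophil gene, was above it in only 3 arrays. Of 9 erythroid genes, 4 exceeded the table's median in yolk sac macrophages, where the sum was 1481 to 3006, while Klf1, Gata1, Alas2 and Rhag were below it. Of 5 B cell genes, Cd79b was above the table's median in all 3 precursors, and the sum was 429 to 520 in yolk sac macrophages against 68.0 to 142 in AMs, while Cd79a, Ms4a1 and Pax5 were below that median in all groups. The part of such cells in the results below was not tested. Over all genes tested, the median difference of every contrast lay between -0.02 and 0.01. In sorted bulk RNA, fewer cycling cells and less RNA per cycling cell cannot be told apart.

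Replication and mitosis genes were high in the fetal precursors and low in every kind of AM. Of the 45 genes, 31 had their highest group mean in fetal liver monocytes and 12 in yolk sac macrophages. The exceptions were Cdkn2b, highest in AM-derived AMs, and E2f1, highest in native AMs at 6 weeks. In fetal liver monocytes, 39 of 45 genes had their lowest array above the highest of all 24 AM arrays, as had 9.74% of all genes tested. The count was 38 in yolk sac macrophages (13.3% of all genes) and 14 in bone marrow monocytes (8.06% of all genes). Of those 14 in bone marrow, 8 were among the 12 mitotic kinases, cyclins and checkpoint genes and 1 among the 11 licensing genes.

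**Figure D1:**
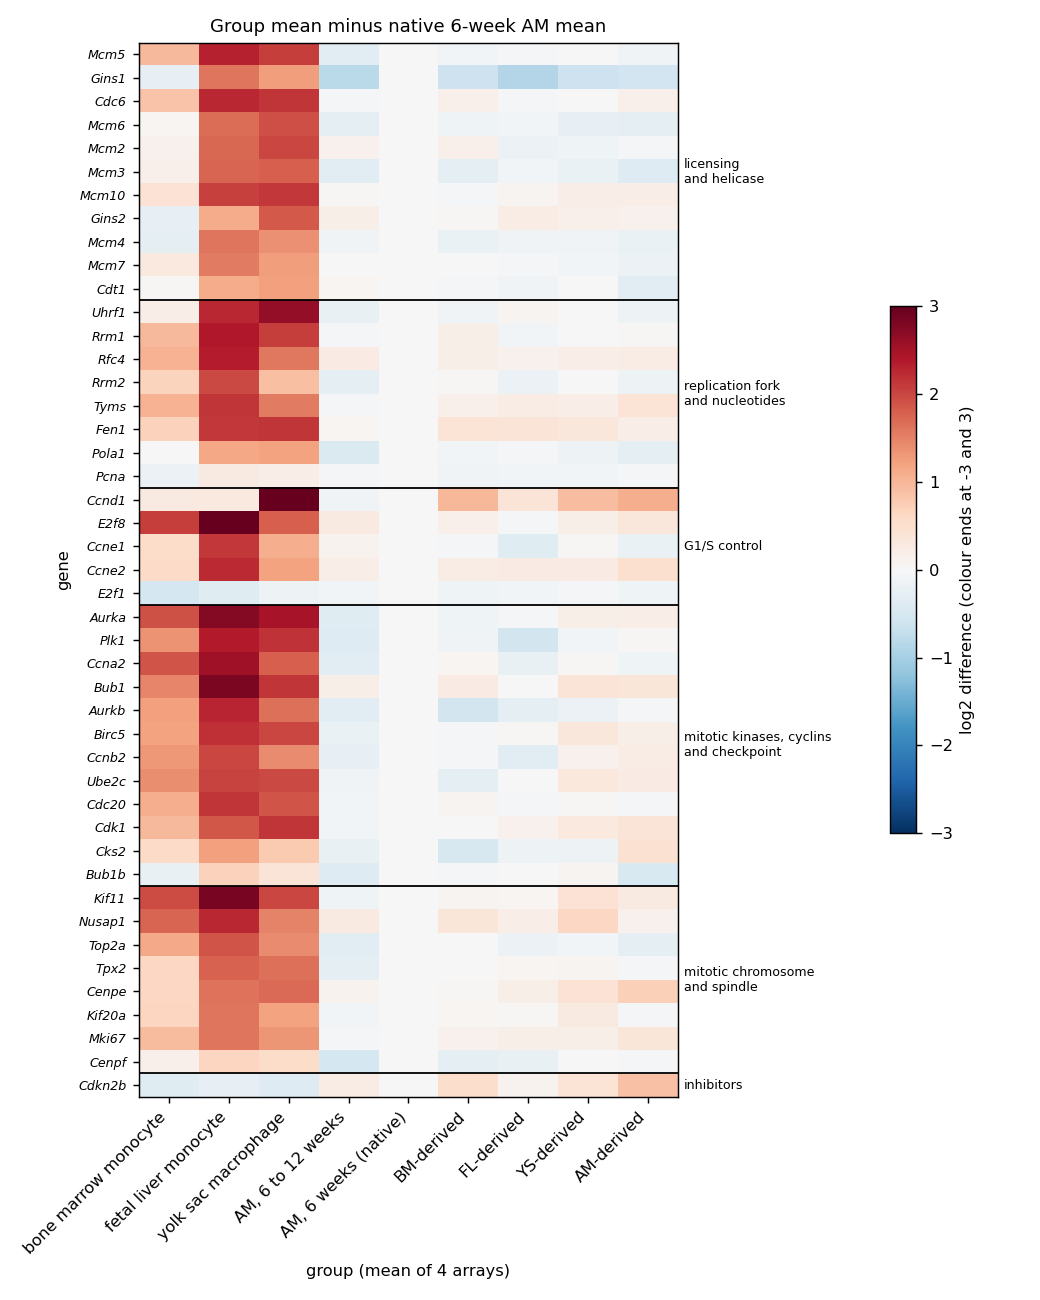
Each row is a gene and each column a group. Colour gives the group mean (4 arrays) minus the mean of native AMs at 6 weeks on the log2 scale. The 2 fetal columns are red through nearly all rows, bone marrow monocytes are red mainly in the mitotic rows, and the 6 AM columns are near white, with the deepest tints in Ccnd1, Cdkn2b and Gins1.

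Summed up per array, replication and mitosis genes set bone marrow monocytes apart in different ways. The median difference of the 19 licensing and fork genes from the native AM mean was -0.07, 0.62, 0.41 and 0.22 in the 4 bone marrow monocyte arrays. In fetal liver monocytes it was 2.07, 1.79, 1.57 and 1.76, and in yolk sac macrophages 1.73, 1.81, 1.68 and 1.80. Bone marrow monocytes lay far below both fetal groups, and 1 of their arrays lay within the range of the AM arrays. For the 20 mitotic genes the medians were 1.17, 0.88, 1.23 and 1.52 in bone marrow monocytes, 2.24, 2.05, 1.84 and 2.18 in fetal liver monocytes, and 1.75, 1.56, 1.57 and 1.90 in yolk sac macrophages. Here every bone marrow array stood above the highest AM array, at 0.34. The neutrophil marker sums of the same 4 bone marrow arrays were 3748, 1356, 5335 and 8839, in the same order as these mitotic medians. Ly6g and Retnlg of that list stayed below the table's median in all of them. The progenitor sums of these arrays were 2401, 1157, 1977 and 3530, lowest and highest in the same arrays. The part of such cells was not tested. One FL-derived array, replicate 4, was low at -0.79 while the other 3 were 0.09, 0.13 and 0.27. That array also had a summed monocyte marker level of 6176 against 1872 to 2224 in the other FL-derived arrays, and its part in the results was tested by leaving it out. Replicate 4 of the adult AMs was also low, at -0.54 for the mitotic genes against -0.07, -0.04 and -0.09. Its mean correlation with its group, 0.9796, was the lowest of the 36 arrays, and without it the 1 call between AM-derived and adult AMs was lost.

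**Figure D2:**
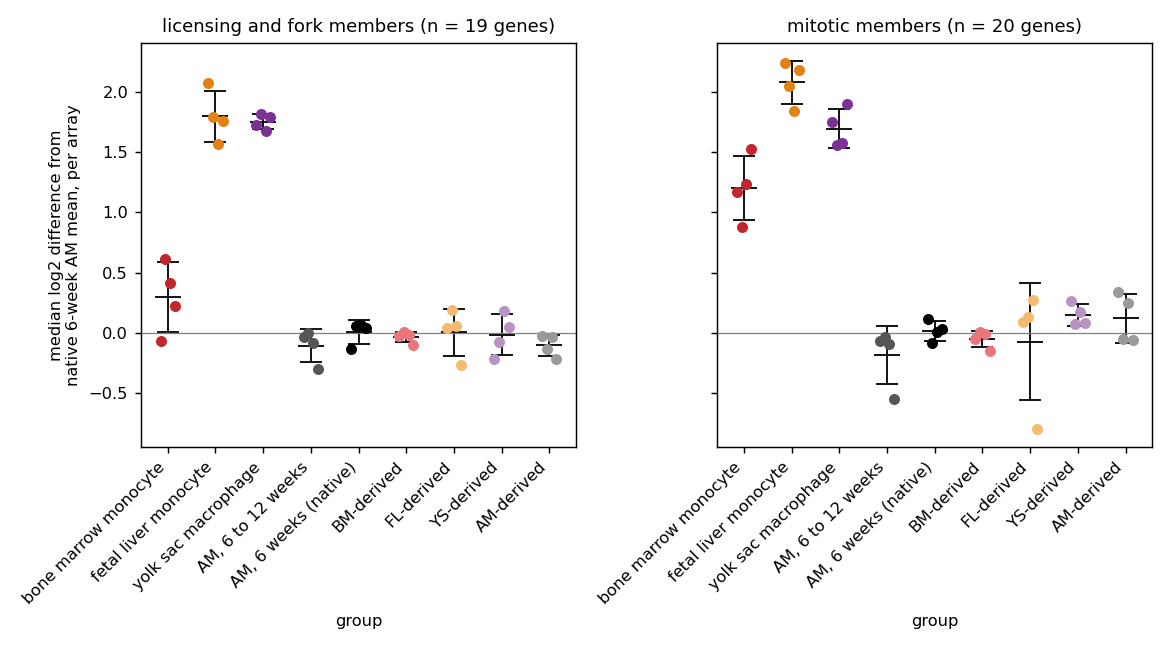
Points are arrays, and bars give the mean and SD of 4 arrays. The y axis is the median log2 difference from native 6-week AMs over 19 licensing and fork genes (left) or 20 mitotic genes (right). Bone marrow monocytes average 0.30 on the left and 1.20 on the right, while the fetal precursors average 1.70 to 2.08 in both.

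Fetal liver and bone marrow monocytes differed in genes of the whole cycle. Of the 45 genes, 38 were higher in fetal liver monocytes (10.6% of all genes tested were) and 0 were lower (8.97% of all genes), by limma at an adjusted p under 0.05. An unadjusted p under 0.05 was met by 40, against 29.7% of all genes. The median difference was 1.06 over the set. All 11 licensing genes (median 1.58), all 8 fork genes (1.31), 3 of 5 G1/S genes (0.97), all 12 mitotic kinases, cyclins and checkpoint genes (0.90) and 4 of 8 chromosome and spindle genes (0.84) rose.

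Among licensing genes, Mcm5, a subunit of the MCM ring, read 7.45, 7.48, 7.85 and 7.62 in bone marrow monocytes and 9.32, 9.02, 8.73 and 8.73 in fetal liver monocytes. Its 24 AM arrays ran from 5.97 through a median of 6.53 to 6.96, below both. The difference between the monocytes was 1.35 ± 0.15 (SE, n = 4 each, limma adjusted p = 4.46e-08). Mcm6, another ring subunit, read 6.59, 8.12, 7.66 and 7.27 against 9.35, 9.03, 8.76 and 9.03. Bone marrow arrays of Mcm6 scattered around the AM arrays (6.48 to 7.67, median 7.28), and all fetal liver arrays were above them. The gap was 1.63 ± 0.24 (limma adjusted p = 4.43e-06). Mcm4 differed by 1.88 ± 0.25 (3.69-fold), Gins1, a GINS subunit, by 1.86 ± 0.27 (3.62-fold), and Mcm10, a fork initiation factor, by 1.63 ± 0.20 (3.09-fold). Cdc6, the MCM loader, read 5.74, 6.33, 6.71 and 6.02 against 7.66, 7.98, 7.33 and 7.52, a difference of 1.42 ± 0.21.

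Among fork genes, Uhrf1, which carries DNA methylation through replication, differed most of the whole set. It read 6.75, 7.65, 7.12 and 6.60 in bone marrow monocytes and 9.25, 9.13, 8.99 and 9.01 in fetal liver monocytes. The groups did not overlap, and the difference was 2.07 ± 0.21 (4.19-fold, limma adjusted p = 3.33e-09). Rrm1, the large subunit of ribonucleotide reductase, read 8.38, 8.64, 8.89 and 8.74 against 10.19, 10.06, 9.99 and 10.17, a difference of 1.44 ± 0.21. Pcna, the sliding clamp, had the smallest difference of the fork genes, 0.47 ± 0.09 (limma adjusted p = 1.33e-04). In G1/S control, Ccne2, an E cyclin that fires S phase, read 7.06, 6.90, 7.11 and 7.25 against 8.41, 8.87, 8.88 and 8.83, a difference of 1.67 ± 0.22.

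For the 20 mitotic genes the median difference between the 2 kinds of monocyte was 0.90, against 1.42 for the 19 licensing and fork genes, a contrast between lists that was not tested. Aurka, a spindle pole kinase, read 8.60, 7.73, 8.82 and 8.48 in bone marrow monocytes and 9.49, 9.15, 9.14 and 9.28 in fetal liver monocytes, while the 24 AM arrays ran from 5.64 through 6.58 to 7.22. Both monocytes were thus well above AMs, with a gap of 0.86 ± 0.25 between them (limma adjusted p = 0.0131). Ccna2, the cyclin of S phase and early mitosis, read 10.05, 9.87, 10.02 and 9.96 against 10.68, 10.74, 10.57 and 10.57, a difference of 0.66 ± 0.24 (adjusted p = 0.0439). Plk1 differed by 1.04 ± 0.26 and Bub1, a spindle checkpoint kinase, by 1.36 ± 0.29. The proliferation marker Mki67 did not pass, at 0.66 with a 95% interval of -0.07 to 1.39 (adjusted p = 0.222). Its fetal liver arrays read 8.86, 7.52, 7.54 and 9.14, spread more widely than bone marrow at 7.33, 8.07, 7.76 and 7.27. The other genes that did not pass were Top2a (0.76), Nusap1 (0.50), Cenpf (0.48), E2f1 (0.18), Cdkn2b (0.10) and Ccnd1 (0.03).

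Yolk sac macrophages were likewise above bone marrow monocytes in every licensing gene, and in fewer of the mitotic genes. Against bone marrow monocytes, 29 of 45 genes were higher (24.1% of all genes tested were) and 0 lower (18.1% of all genes), with a median of 0.68. An unadjusted p under 0.05 was met by 34, against 49.6% of all genes. This contrast uses the same bone marrow arrays as the one above. All 11 licensing genes rose (median 1.63), as did 6 of 8 fork genes, 3 of 5 G1/S genes, 6 of 12 mitotic kinases, cyclins and checkpoint genes and 3 of 8 chromosome and spindle genes. Uhrf1 read 9.62, 9.59, 9.22 and 9.51 in yolk sac macrophages and was 2.45 ± 0.21 above bone marrow monocytes. Gins2, a GINS subunit, read 9.29, 9.57, 9.35 and 9.37 against 7.30, 6.94, 7.42 and 7.65, a difference of 2.07 ± 0.18 (4.21-fold, limma adjusted p = 1.45e-11). Mcm6 (1.88 ± 0.24), Mcm2 (1.87 ± 0.23) and Mcm10 (1.70 ± 0.20) followed.

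Between the 2 fetal precursors, 2 genes were higher in yolk sac macrophages (18.6% of all genes tested were) and 11 lower (14.5% of all genes), and 32 did not pass. E2f8, a repressor E2F of late S phase, read 8.69, 8.06, 7.76 and 8.63 in fetal liver monocytes and 7.36, 6.80, 6.48 and 7.50 in yolk sac macrophages, a difference of -1.25 ± 0.24 (limma adjusted p = 6.83e-05). Both E cyclins were lower in yolk sac macrophages without overlap. Ccne1 read 8.11, 8.18, 8.22 and 7.86 against 7.05, 6.88, 7.06 and 7.21, a difference of -1.04 ± 0.15, and Ccne2 also fell by 1.04. Rrm2, the small subunit of ribonucleotide reductase, was lower by -1.09 ± 0.22 and Kif11 by -0.86 ± 0.28. For Mcm5 the difference was -0.24 with a 95% interval of -0.56 to 0.07, and for Aurka -0.29 with an interval of -0.80 to 0.22. Licensing and fork genes together had a median difference of -0.08 and mitotic genes of -0.29.

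After 6 weeks in the lung nearly the whole program was lower in the progeny of fetal cells. In FL-derived AMs against fetal liver monocytes, 42 of 45 genes fell (18% of all genes tested fell) and 0 rose (20.4% of all genes), with a median of -1.97. An unadjusted p under 0.05 was met by 42, against 45.3% of all genes. The genes that did not pass were E2f1 (0.27, 95% interval -0.07 to 0.60), Ccnd1 (0.10) and Cdkn2b (0.36). E2f8 read 4.90, 5.33, 5.30 and 5.19 in FL-derived AMs, a change of -3.10 ± 0.24 (8.60-fold lower, limma adjusted p = 6.71e-13). Plk1 read 9.23, 8.47, 8.47 and 8.63 before and 5.81, 5.98, 6.40 and 4.85 after transfer, a change of -2.94 ± 0.26. Bub1 (-2.83 ± 0.29), Aurka (-2.81 ± 0.25), Kif11 (-2.80 ± 0.28) and Ccna2 (-2.77 ± 0.24) followed. Without replicate 4 of the FL-derived AMs, 42 genes were called as well.

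In YS-derived AMs against yolk sac macrophages, 41 genes fell (23.2% of all genes tested fell) and 1, Cdkn2b, rose (19.6% of all genes), with a median of -1.58. The 3 that did not pass were E2f1 (0.09), Bub1b, a checkpoint component (-0.30), and Cenpf, a kinetochore protein (-0.56). Uhrf1 read 6.43, 6.77, 7.04 and 7.21 in YS-derived AMs, a change of -2.62 ± 0.21 (6.15-fold lower). Aurka fell by 2.30 and Plk1 by 2.27. Cdc6 read 7.26, 7.63, 7.34 and 7.80 before and 5.55, 4.97, 5.72 and 5.11 after transfer, a change of -2.17 ± 0.21 (limma adjusted p = 1.07e-10). Mcm6 fell by 2.17 (SE 0.24).

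From bone marrow monocytes to BM-derived AMs most mitotic genes fell, while 9 of 11 licensing genes did not pass the test. In BM-derived AMs against bone marrow monocytes, 23 of 45 genes fell (16.1% of all genes tested fell), 2 rose (20.3% of all genes) and 20 did not pass, with a median of -0.61. Of the mitotic kinases, cyclins and checkpoint genes 11 of 12 fell (median -1.31), with Bub1b at 0.19 the exception, as did 4 of 8 chromosome and spindle genes. Of the licensing genes 2 of 11 fell, Mcm5 (-1.06 ± 0.15) and Cdc6 (-0.69 ± 0.21), and of the fork genes 4 of 8. Aurka read 6.72, 6.39, 6.56 and 5.82 in BM-derived AMs, a change of -2.04 ± 0.25 (4.10-fold lower, limma adjusted p = 4.01e-08). Kif11, the motor that pushes spindle poles apart, read 7.61, 8.02, 8.04 and 8.36 before and 6.16, 6.38, 5.90 and 6.10 after, a change of -1.87 ± 0.28. E2f8 (-1.92 ± 0.24), Ccna2 (-1.83 ± 0.24), Aurkb, the kinase of the chromosomal passenger complex (-1.77 ± 0.18), and Ube2c, the ubiquitin-conjugating enzyme of the anaphase-promoting complex (-1.67 ± 0.21), moved likewise. By contrast Mcm2 changed by 0.02 with a 95% interval of -0.44 to 0.48, and Mcm4 by 0.07 with an interval of -0.43 to 0.58. Mcm2 read 6.07, 5.98, 6.88 and 6.39 before and 6.67, 6.46, 6.00 and 6.27 after, with full overlap. Mcm4 read 5.30, 7.37, 6.84 and 6.63 before and 6.78, 6.48, 6.70 and 6.50 after. Its small change thus rested on the low bone marrow replicate 1. That array was also the lowest in Mcm3 (6.61, the others 7.42 to 7.79) and Mcm6 (6.59, the others 7.27 to 8.12). It was not low in every licensing gene, and in Mcm7 it was the highest. Without that array, 27 of the 45 genes were called in this contrast.

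**Figure D3:**
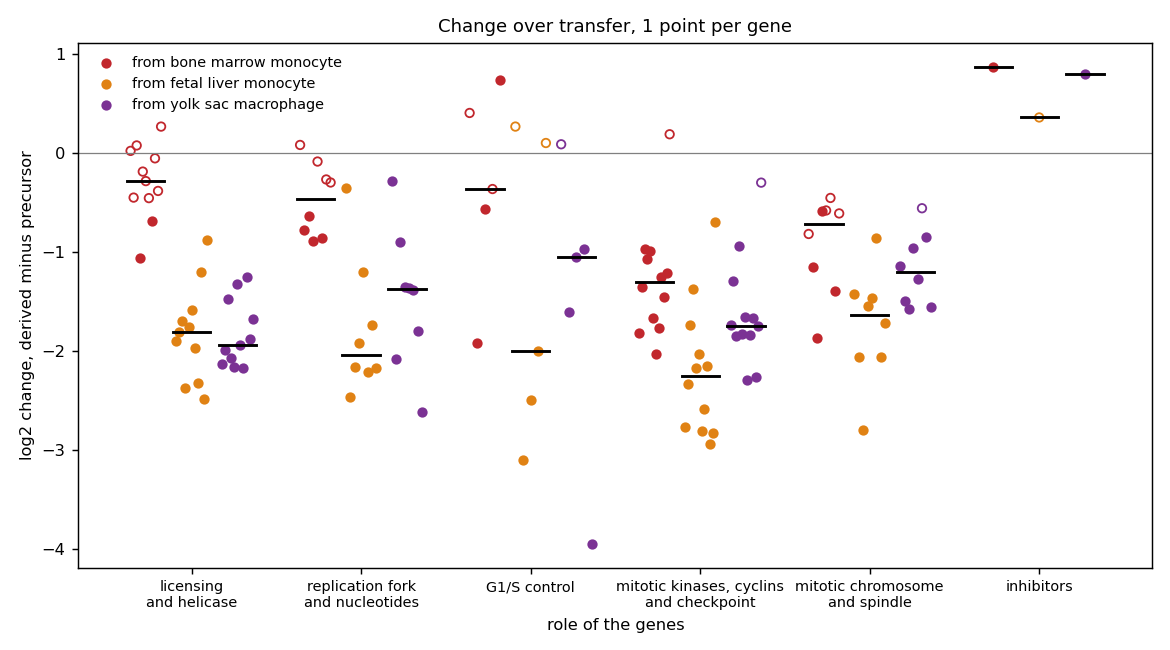
Each point is 1 gene's log2 change from precursor to derived AM (difference of means of 4 arrays), grouped by role. Filled points passed limma at an adjusted p under 0.05, open points did not, and black lines are medians. For licensing genes the bone marrow points run from -1.06 to 0.27 with a median of -0.29, while the fetal liver and yolk sac points lie at -0.88 or below.

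The difference in change between origins was tested directly. For 29 of 45 genes the change over transfer from fetal liver lay below that from bone marrow (5.68% of all genes tested were lower). It lay above for 0 (4.26% of all genes were higher). Not every one of these genes fell from bone marrow, where Mcm2 barely changed. An unadjusted p under 0.05 was met by 37, against 22.2% of all genes. Those 29 held all 19 licensing and fork genes, with a median difference in change of -1.47, and 7 of 20 mitotic genes. Ccne1 differed by -1.92 ± 0.21 (limma adjusted p = 4.34e-08), Mcm2 by -1.92 ± 0.32, Uhrf1 by -1.88 ± 0.29, Rrm1 by -1.69 ± 0.30, Mcm5 by -1.32 ± 0.22 and Mcm7 by -1.30 ± 0.22. For 20 genes the change from yolk sac lay below that from bone marrow (18.2% of all genes were lower). It lay above for 0 (12.4% of all genes were higher). Of the 20, 16 were among the 19 licensing and fork genes and 3 among the 20 mitotic genes. Here too not all fell from bone marrow, where Ccnd1 rose. Ccnd1 differed by -4.68 ± 0.38, Uhrf1 by -2.32 ± 0.29, Mcm2 by -2.15 ± 0.32, Mcm6 by -1.98 ± 0.34, Gins2 by -1.94 ± 0.26 and Fen1, the flap endonuclease, by -1.53 ± 0.27. These 2 contrasts share the bone marrow and BM-derived arrays. They and the interaction below also use the precursor arrays compared above. Between the 2 kinds of monocyte the licensing and fork median was 1.42. The interactions are therefore not separate evidence from the differences between precursors.

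Between the 2 fetal origins, the change from yolk sac lay above that from fetal liver for 10 genes (9.48% of all genes tested were higher). It lay below for 2 (13.5% of all genes were lower). E2f8 differed by 1.49 ± 0.34, Ccne1 by 1.45 ± 0.21, Rrm2 by 1.26 ± 0.31, Nusap1, a spindle microtubule protein, by 1.21 ± 0.34, and Ccnb2, a mitotic cyclin, by 1.05 ± 0.25. Ccnd1 went the other way, at -4.05 ± 0.38. The count of 12 dropped to 8 without replicate 4 of the FL-derived AMs.

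Among AMs, few of these genes passed the test in any comparison. Between the BM-, FL- and YS-derived AMs, limma called 0 of 45 genes in each of the 3 pairs. Over all genes tested it called 0.417% for FL- against BM-derived, 0.833% for YS- against BM-derived and 0.27% for YS- against FL-derived AMs. At an unadjusted p under 0.05 there were 3, 2 and 3 of the 45, against 5.85%, 7.96% and 6.28% of all genes. Against native AMs at 6 weeks, limma called 0 of the 45 in BM-derived AMs (1.31% of all genes), 0 in FL-derived AMs (1.05%) and 0 in YS-derived AMs (1.72%). At an unadjusted p under 0.05 there were 6, 3 and 5, against 8.13%, 6.89% and 8.59% of all genes. AM-derived AMs differed from native ones in 2 genes, Ccnd1 and Cdkn2b (1.07% of all genes were called), and from the adult AMs they came from in 1, Ccnd1 (0.702%). Adult and native AMs gave 0 calls by limma (0.0163% of all genes). At an unadjusted p under 0.05 these 3 comparisons gave 9, 8 and 3 of the 45, against 9.09%, 8.5% and 4.08% of all genes. The comparisons with native AMs share those 4 arrays.

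The sizes of the differences between AM groups can be read from single genes. They are point differences, and their range over genes neither measures precision nor shows equality. For YS- against BM-derived AMs, differences in the 19 licensing and fork genes ran from -0.29 to 0.21, and in the 20 mitotic genes from -0.07 to 0.59. For FL-derived against native AMs they ran from -0.88 (Gins1) to 0.38 and from -0.56 (Plk1) to 0.19. Gins1 read 7.16, 6.77, 7.05 and 8.14 in native AMs and 6.45, 6.76, 5.97 and 6.44 in FL-derived AMs, so 1 native array stood above the other 3.

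The D cyclins, which link growth signals to G1, split by cell type. Ccnd1 read 9.39, 9.51, 9.32 and 9.70 in yolk sac macrophages. It read 4.94, 4.93, 5.08 and 4.51 in bone marrow monocytes and 5.44, 4.74, 4.72 and 4.66 in fetal liver monocytes, near the median of the table. Yolk sac macrophages were 4.61 ± 0.27 above bone marrow (24.5-fold) and 4.59 ± 0.27 above fetal liver monocytes (24.0-fold, limma adjusted p = 5.90e-16). In YS-derived AMs it read 5.02, 5.34, 5.95 and 5.81, a change of -3.95 ± 0.27.

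Among AMs, Ccnd1 was low, and higher in AM-derived than in native or adult AMs. It read 4.78, 4.65, 4.49 and 4.10 in adult AMs and 4.70, 4.41, 4.80 and 4.48 in native AMs at 6 weeks. In AM-derived AMs it read 6.20, 5.95, 5.49 and 5.06, above all 8 of these. The difference was 1.17 ± 0.27 from adult AMs (limma adjusted p = 0.0218) and 1.08 ± 0.27 from native ones (adjusted p = 0.0333), each at least 2.07-fold because the lower mean was below the table's median. In BM-derived AMs it read 5.60, 5.41, 6.57 and 4.83, a difference of 1.00 ± 0.27 from native AMs that missed the threshold (adjusted p = 0.0514, 95% interval 0.46 to 1.55). It passed with an intensity trend, with array medians subtracted, with quantile normalisation, with array weights, with a replicate block and without BM-derived replicate 4. For YS-derived AMs the difference was 0.93 (adjusted p = 0.0705, interval 0.39 to 1.48), and it passed with array weights, with only the groups compared in the fit and without YS-derived replicate 1. FL-derived AMs read 4.79, 5.56, 4.90 and 4.71 and overlapped native AMs, with a difference of 0.40 (interval -0.15 to 0.94). Against its own precursor Ccnd1 rose in BM-derived AMs by 0.73 ± 0.27 (adjusted p = 0.0298). The call in AM-derived AMs rested on single arrays: against adult AMs it was lost without replicate 3 or 4 of those or without replicate 1 or 2 of the AM-derived AMs, and against native AMs without replicate 1 or 2 of the AM-derived AMs or without any 1 of the 4 native arrays. Both were also lost with only the groups compared in the fit.

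Ccnd2 and Ccnd3, which come from a list of 71 other cell cycle genes rather than from the 47, completed the pattern. Ccnd2 read 6.00, 5.74, 5.41 and 5.89 in bone marrow monocytes, 5.90, 5.71, 5.82 and 5.71 in fetal liver monocytes and 6.01, 5.65, 5.00 and 5.62 in yolk sac macrophages. Its 24 AM arrays ran from 9.24 through 10.08 to 10.77, so precursors and AMs did not overlap. It rose over transfer by 4.42 ± 0.20 from bone marrow (21.4-fold), by 4.15 ± 0.20 from fetal liver (17.8-fold) and by 4.88 ± 0.20 from yolk sac (29.4-fold, limma adjusted p = 2.77e-20). Ccnd3 read 8.46, 8.67, 8.66 and 8.60 in bone marrow monocytes and 8.99, 8.78, 9.11 and 9.04 in fetal liver monocytes, above all 24 AM arrays, which ran from 7.02 to 8.05. In yolk sac macrophages it read 7.59, 7.07, 7.10 and 7.10, within the AM range and 1.38 ± 0.13 units below bone marrow monocytes.

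**Figure D4:**
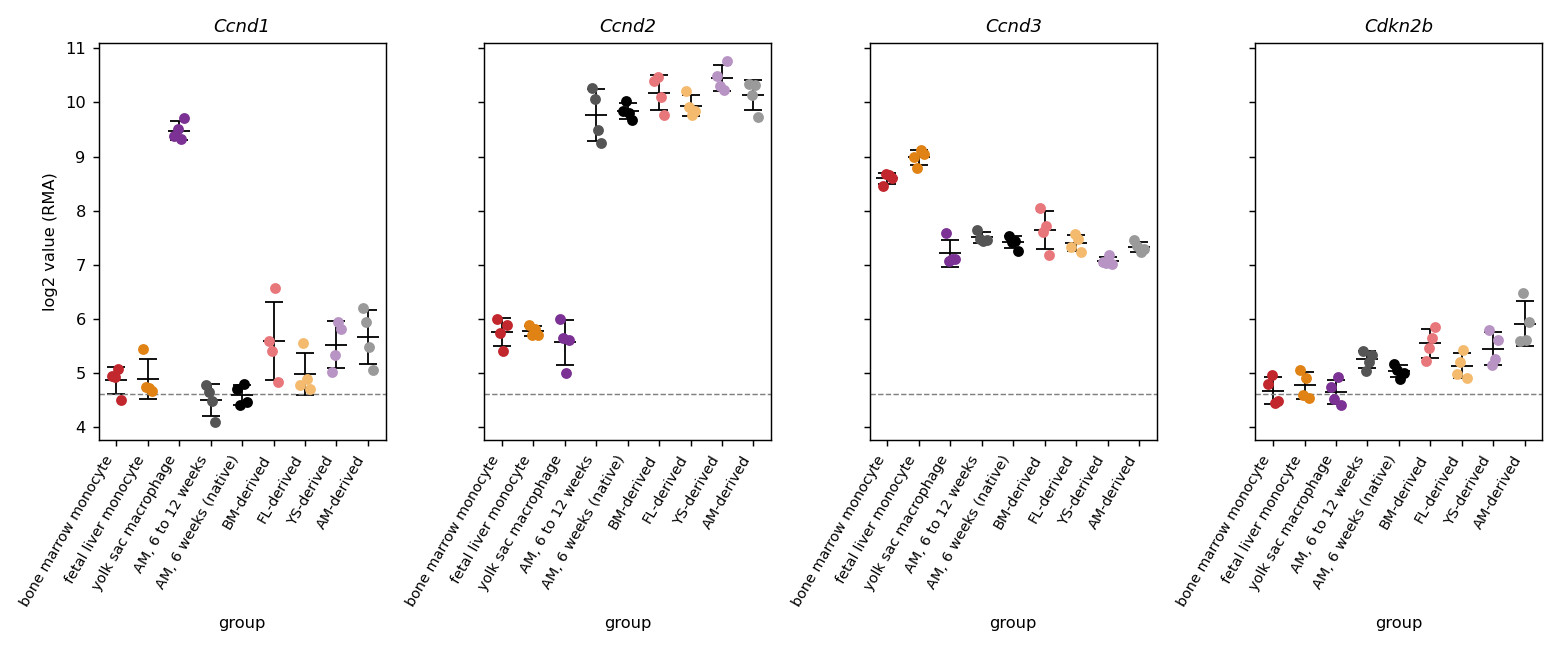
Points are arrays, bars give the mean and SD of 4 arrays, and the dashed line is the median of the table (4.623). The y axis is the deposited log2 value. Ccnd1 is high in yolk sac macrophages (9.32 to 9.70), Ccnd2 in the 6 AM groups (9.24 to 10.77) and Ccnd3 in the 2 monocyte groups (8.46 to 9.11), while Cdkn2b reaches its highest array, 6.48, in AM-derived AMs.

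Cdkn2b, the p15 inhibitor of the kinases that D cyclins activate, rose over transfer from bone marrow and from yolk sac. It read 4.79, 4.97, 4.45 and 4.49 in bone marrow monocytes and 5.23, 5.47, 5.65 and 5.85 in BM-derived AMs, without overlap, a rise of 0.87 ± 0.18 (limma adjusted p = 1.63e-04). In yolk sac macrophages it read 4.74, 4.53, 4.93 and 4.42 and in YS-derived AMs 5.79, 5.15, 5.26 and 5.61, a rise of 0.80 ± 0.18. In AM-derived AMs it read 5.60, 6.48, 5.62 and 5.95 against 5.17, 5.05, 4.90 and 5.01 in native AMs, a difference of 0.88 ± 0.18 (adjusted p = 0.00501), a call that was lost with only these groups in the fit. Against adult AMs the difference of 0.66 did not pass (adjusted p = 0.0835), except with array weights. The rise of Cdkn2b was not shared by all inhibitor genes. On the list of other cell cycle genes, Cdkn2c fell from bone marrow by -1.90 ± 0.16 (limma adjusted p = 4.26e-12). Cdkn2d fell there by -2.31 ± 0.21 (limma adjusted p = 4.21e-11).

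The list of other cell cycle genes was read in the same contrasts. Of 71 listed, 70 were measured, and 54 were higher and 1 lower in fetal liver than in bone marrow monocytes (median 0.90), against 10.6% and 8.97% of all genes tested. The lower one was Rb1, the retinoblastoma protein gene (-0.56 ± 0.17). Cdc45, which completes the active helicase (1.78 ± 0.15), Chek1, the S phase checkpoint kinase (1.90 ± 0.18), E2f7 (1.13 ± 0.12) and Orc6, of the origin recognition complex (1.64 ± 0.20), led by adjusted p. In yolk sac macrophages 38 were higher and 7 lower than in bone marrow monocytes (24.1% and 18.1% of all genes). Against fetal liver monocytes 3 were higher and 24 lower (18.6% and 14.5%). Over transfer 34 fell and 3 rose from bone marrow (median -0.42), 61 fell and 4 rose from fetal liver (-1.52), and 54 fell and 4 rose from yolk sac (-1.10). Over all genes 16.1%, 18% and 23.2% fell and 20.3%, 20.4% and 19.6% rose. Racgap1, needed for cytokinesis, fell in all 3, by 1.92, 2.41 and 1.51.

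The 3 genes of that list that rose from bone marrow were Ccnd2, Myc and Cdk6. Myc, the growth transcription factor, read 5.89, 6.91, 5.57 and 6.96 in bone marrow monocytes against 8.85, 8.97, 8.88 and 8.65 in BM-derived AMs, a rise of 2.51 ± 0.23 (5.68-fold, limma adjusted p = 9.63e-11). From fetal liver it rose by 1.70 ± 0.23, and from yolk sac, where it read 9.79, 10.04, 9.67 and 9.86, it fell by 0.70. Cdk6, a partner of the D cyclins, read 5.47, 5.70, 6.16 and 5.34 in bone marrow monocytes and 8.04, 7.90, 8.06 and 7.95 in BM-derived AMs, a rise of 2.32 ± 0.24. It rose by 1.67 ± 0.24 from fetal liver. Other G1 genes fell in monocyte progeny, among them Ccnd3, by -0.95 ± 0.13 from bone marrow and -1.58 ± 0.13 from fetal liver, and Cdk4, another D cyclin partner, by -1.20 ± 0.12 from fetal liver. Between derived AMs of different origin only Ccnd3 passed among the 70, lower in YS- than in BM-derived AMs by -0.57 ± 0.13 (limma adjusted p = 0.0184). Of all genes tested, 0.833% were called in that comparison, a share that 1 call among 70 does not clearly exceed.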

How the data were processed

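Expression was measured on Affymetrix mouse whole-transcript arrays in sorted cells whose RNA was amplified, per the series' design text. The authors deposited log2 values per probe set. Per the submitters' processing notes these come from RMA, whose version is not given. RMA sets all arrays to a common distribution, so a shift shared by most genes is removed and differences of dim genes are compressed. Of 35556 probe sets, 21789 had 1 symbol in the platform annotation, 1621 several and 12146 no entry. Symbols were updated by Entrez identifier (21698 matched, 91 kept the older one). The probe set with the highest mean was kept per gene. Genes above the table's median in at least 4 arrays were tested.

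Samples were grouped by title. With limma 3.58.1 in R 4.3.3 (lmFit, eBayes), group means were fitted over all 36 arrays for 12244 genes, with Benjamini-Hochberg adjustment within each contrast and calls at 0.05. It was tested on simulated data. Differences are given ± SE of the fit. Folds use the table's median in place of a lower mean below it.

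The members, roles and lists were chosen with earlier results of these data known. Genes given in every array are those with the wide range of group means in a role (up to 4 a role), and genes named per contrast are the 6 with the largest called differences, or for interactions the 6 with the lowest adjusted p. For other cell cycle genes they are up to 4 a contrast with the lowest adjusted p. Mcm2, Mcm4, Mki67, Gins2, Pcna, Ccnd3, Cdk4, Myc, Cdk6 and Rb1 were given further values after these had been seen. Alternatives were the filter, the eBayes trend, scaling, the probe set rule, the replicate block, array weights, the samples fitted and leaving out each array. The number of arrays limits the precision.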

Additional observations from a re-analysis of the deposited data

Results flagged for a closer look

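Some single arrays lay far from the other 3 of their group by Dixon's test, which was met by 18 of 405 sets of 4 arrays, and chance gives about 1 in 20. Replicate 4 of the adult AMs met it in 4 genes: Cdt1 (5.79, the others 6.81 to 6.91), Top2a (6.08, the others 7.43 to 7.64) and Kif20a (5.06) were low, and Tyms (7.85) was high. Replicate 4 of the FL-derived AMs was low in Cdc20 (5.92, the others 6.71 to 6.80) and Ube2c (6.39, the others 7.68 to 7.82). Replicate 1 of the fetal liver monocytes was low in Ccne2 (8.41) and high in Ccnd1 (5.44). Low arrays elsewhere were Mcm5 (8.41) and Gins1 (8.12) in yolk sac macrophages, Mcm7 (5.97) in BM-derived AMs, Pcna (11.40) in adult AMs, Pola1 (5.74) in AM-derived AMs, Mki67 (5.73) in native AMs and Tpx2 (5.99) in YS-derived AMs. High ones were E2f1 (6.90) in BM-derived AMs, Ccnb2 (10.42) in bone marrow monocytes and Ube2c (8.11) in YS-derived AMs.

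The change over transfer differed between origins by the interaction contrasts of limma. Fetal liver minus bone marrow origin was -1.92 for Ccne1, -1.88 for Uhrf1, -1.32 for Mcm5, -1.92 for Mcm2, -1.30 for Mcm7 and -1.69 for Rrm1. Yolk sac minus bone marrow origin was -4.68 for Ccnd1, -2.32 for Uhrf1, -1.94 for Gins2, -2.15 for Mcm2, -1.98 for Mcm6 and -1.53 for Fen1. Yolk sac minus fetal liver origin was -4.05 for Ccnd1, 1.45 for Ccne1, 1.49 for E2f8, 1.05 for Ccnb2, 1.26 for Rrm2 and 1.21 for Nusap1. The BM-derived and fetal-derived AMs themselves were not called different in any of these genes.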

How the results depend on the processing

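Leaving out each array in turn, the number of the 45 genes called ranged from 34 to 37 for fetal liver against bone marrow monocytes (38 with all arrays), 23 to 30 for yolk sac macrophages against bone marrow monocytes (29), 12 to 14 between the fetal precursors (13), 21 to 27 for BM-derived AMs against their precursor (25), 42 to 42 for FL-derived (42) and 42 to 43 for YS-derived AMs (42). For the interactions it ranged from 24 to 31 (29, fetal liver against bone marrow), 17 to 21 (20, yolk sac against bone marrow) and 8 to 14 (12, yolk sac against fetal liver). Among AMs it ranged from 0 to 1 for AM-derived against adult AMs (1), 1 to 2 for AM-derived against native AMs (2), and 0 to 1 for BM-derived and YS-derived against native AMs (0). It was 0 throughout for adult or FL-derived against native AMs and between derived AMs of the 3 precursors. BM-derived against native AMs gave 1 call, Ccnd1, with an intensity trend, with array medians subtracted, with quantile normalisation, with array weights and without BM-derived replicate 4, and 1, Aurkb, without BM-derived replicate 1. YS-derived against native AMs gave 1, Ccnd1, with array weights and without YS-derived replicate 1, and 2, Ccnd1 and Nusap1, with only the groups compared in the fit. AM-derived against adult AMs gave 2, Ccnd1 and Cdkn2b, with array weights and 0 with only the groups compared, where AM-derived against native AMs also gave 0. The causes were not tested. All other counts stayed within 1.5 times. Of 1113 alternative values for 57 named differences, 1100 kept direction and call, 13 kept direction only and 0 reversed. Subtracting array medians moved the median of all genes by -0.11 in the yolk sac against bone marrow interaction, by 0.10 in yolk sac macrophages against bone marrow monocytes and by less in the other contrasts. Restricting motif searches to the bases before the start gave E2F in 26.3% of replication and G1/S promoters and 5.9% of mitotic ones (1.9% of all), the CHR in 15.8% and 41.2% (16.3%), and the CCAAT box in 63.2% and 88.2% (34.5%).

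Array numbers did not pair the samples in a consistent way. Deviations of same-numbered arrays correlated between -0.23 and 0.42, and in 0 of 15 contrasts was every pair over 0.1. For AM-derived against adult AMs the correlations were 0.21, 0.19, -0.01 and 0.42, so a pairing there was not excluded. With the replicate number as a block, the count was 38 for fetal liver and 31 for yolk sac against bone marrow cells, 25, 42 and 42 for BM-, FL- and YS-derived AMs against precursors, and 1 (Ccnd1) for BM-derived against native AMs.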
